A study of Mus musculus with 12 samples.

Results

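Induced pluripotent stem cells were compared with reprogramming cultures at day 4 to describe what still differed after the first days of factor expression. The comparison covered every gene that reached an FPKM of 1 in 3 or more of these 6 libraries, which was 16293 of the 40384 genes in the table. FPKM, the deposited unit, is the number of fragments scaled by gene length and library depth. The 2 groups compared were D4, 3 libraries labelled day 4, cell type MEF and OE-NC (the control of an overexpression), and iPSC, 3 libraries of induced pluripotent stem cells with no time or treatment label. A pair of further groups is printed only as levels beside them: MEF, the embryonic fibroblasts, and D4_DUX, day 4 cultures labelled OE-DUX with an overexpression of 48 h, with 3 libraries each. The Dux gene Duxf3 was listed at 0 in all 3 libraries labelled OE-DUX. Whether this gene ID counts the overexpressed message is not known, so the value does not settle that label. All cultures trace to 4F2A fibroblasts of E13.5 male homozygous embryos, and 1 growth text with LIF and doxycycline at 2 μg/mL covers every library, fibroblasts included. The labels do not say whether the iPSC were a clone, were on feeder cells or came from the same preparation as the D4 cultures, nor whether the libraries of a group were separate cultures, so p-values measure the spread between these libraries, which may be technical.

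The 4F2A allele lets doxycycline switch on Oct4 (Pou5f1), Sox2, Klf4 and Myc in somatic cells. In reprogramming, fibroblasts first divide and change shape, then lose mesenchymal and gain epithelial genes, and the endogenous pluripotency network comes on late. That network, built around Oct4, Sox2, Nanog and Esrrb, sustains itself without the transgenes. Silencing of somatic genes, opening of methylated germline genes and a shift in metabolism and cell cycle accompany it.

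Depth was 22550000 to 28110000 counted fragments per library, as recovered from the low FPKM steps. Some facts about the libraries bear on all that follows. The iPSC libraries held fibroblast messages: the 47 fibroblast matrix genes took 1.51 to 1.91% of all FPKM in iPSC, 4.56 to 4.82% in D4 and 5.92 to 6.16% in MEF. The 18 macrophage markers took 0.0586 to 0.0723% in iPSC, 0.0658 to 0.0761% in D4 and 0.568 to 0.579% in MEF, and Lyz2 stood at 84.0 to 119 FPKM in iPSC. Within iPSC, replicate 1 was highest and replicate 3 lowest in matrix genes, and their part in the differences below was not tested. In bulk RNA, fewer cells of a type and less RNA per cell cannot be told apart. Xist, the long RNA of X inactivation, was at 17.3 to 29.0 FPKM in the 12 libraries together with the Y-linked Ddx3y at 9.15 to 14.6 FPKM, so both were present although the embryos are labelled male. A set of 20 genes was higher in iPSC than in D4 by at least 8-fold while its MEF level was at least 0.5 of that in iPSC, and 13 of these were processed pseudogenes. Rpsa-ps10 read 528 FPKM in MEF, 6.24 in D4, 6.13 in D4_DUX and 635 in iPSC, and its parent Rpsa 345, 410, 390 and 393. Ifi202b, an interferon-inducible gene, was listed at 0 in all D4 and D4_DUX libraries and at 39.3 to 49.5 FPKM in iPSC, and Rpl29, a ribosomal protein gene, was at 14.7 to 17.3 FPKM in D4 and 252 to 269 in iPSC. For such genes a difference between preparations and a difference between stages cannot be told apart, and pseudogene copies are uncertain because reads can be shared with their parent gene.

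Most of the transcriptome differed between the day 4 cultures and the iPSC. By limma on log2(FPKM + 1) with Benjamini-Hochberg adjustment, 13705 genes (84.1%) passed an adjusted p of 0.05, 8167 (50.1%) higher and 5538 (34.0%) lower in iPSC. By at least 2-fold, 3393 (20.8%) were higher and 1655 (10.2%) lower, and by at least 8-fold 339 and 119. The iPSC and D4 libraries did not overlap for 13671 genes (83.9%). The median log2 fold change over all genes tested was 0.18, so the larger number of higher genes depends on scaling: with quantile normalization the median was -0.03 and 6728 genes were higher and 7082 lower, and with median-ratio scaling the median was 0.08 with 7439 and 6242. A gene with FPKM of at least 1 in iPSC alone (1849 genes) or in D4 alone (703 genes) had to differ, while 12733 genes reached 1 in all 6 libraries, of which 14.6% were higher and 9.56% lower by at least 2-fold. Genes just inside the filter, at 1 FPKM in exactly 3 libraries, numbered 2690 with a median highest value of 2.49 FPKM, and those just outside, at 1 in exactly 2, numbered 570 with 1.31. Of the 339 genes higher by 8-fold, 255 were under 1 FPKM in MEF too. Of the 119 lower by 8-fold, 40 were under 1 FPKM in MEF.

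**Figure D1:**
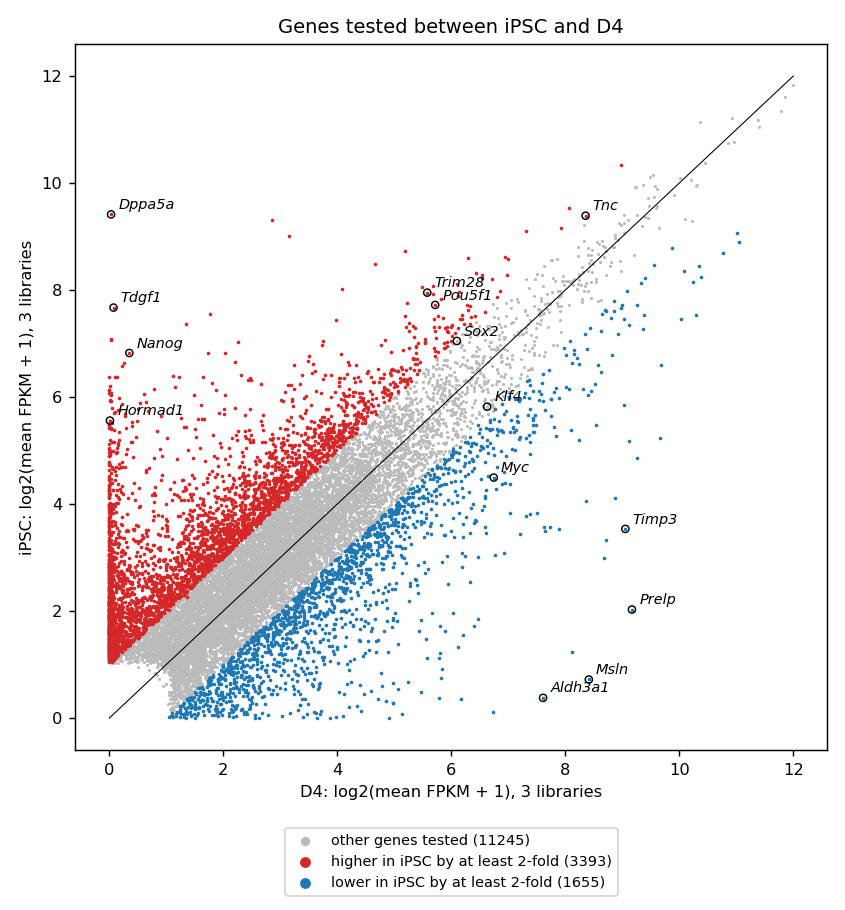
Each point is 1 of the 16293 genes tested, with log2(mean FPKM + 1) of the 3 D4 libraries on the x axis and of the 3 iPSC libraries on the y axis, red for 3393 genes higher and blue for 1655 genes lower in iPSC by at least 2-fold, and the diagonal for equality. Dppa5a, Tdgf1 and Nanog lie along the left edge, near 0 in D4, while Msln, Prelp and Timp3 lie far below the diagonal.

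The reprogramming factors themselves split. In D4, Pou5f1 (GRCm38 chromosome 17, 35506018 to 35510772) had 50.9, 46.0 and 57.9 FPKM, and in iPSC 202, 206 and 222, which is 2.01 ± 0.07 higher on the log2 scale (SE, adjusted p = 5.65e-11). Sox2 was at 69.2, 59.3 and 73.8 FPKM in D4 and 131, 126 and 137 in iPSC, a log2 fold change of 0.96 ± 0.09 (adjusted p = 1e-06). Both were higher in each iPSC library than in any D4 library. Klf4 was at 98.2, 95.4 and 100 FPKM in D4 and 49.4, 54.4 and 62.6 in iPSC (log2 fold change -0.82 ± 0.08). Myc was at 103, 108 and 107 FPKM in D4 and 20.5, 22.1 and 22.1 in iPSC, close to the 14.0 of MEF (log2 fold change -2.25 ± 0.08). Groups did not overlap for Klf4 or Myc either. Messages of the transgenes and of the endogenous copies of these 4 genes cannot be told apart in the values. Nanog, which has no transgene here, was at 0.327, 0.225 and 0.278 FPKM in D4, beside a mean of 0.201 in MEF, and at 99.2, 111 and 127 in iPSC. Its log2 fold change was 6.46 ± 0.08 (adjusted p = 1.86e-14), a 406-fold ratio of means.

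**Figure D2:**
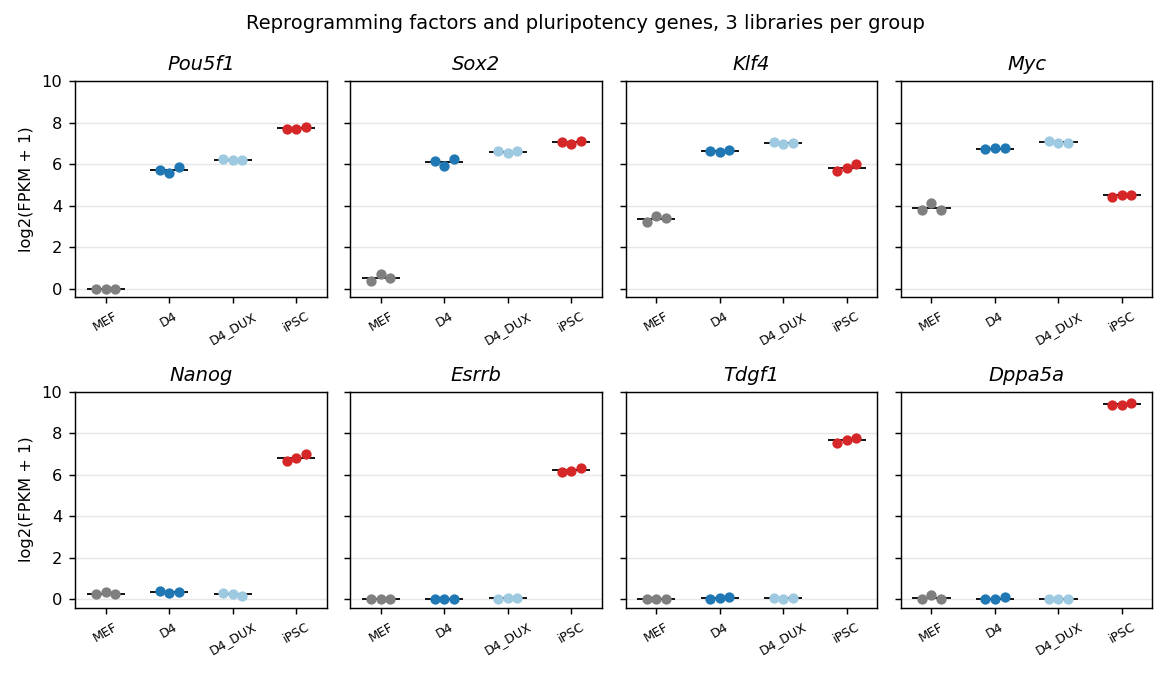
Each dot is 1 library and each bar the mean of 3 libraries, on the y axis as log2(FPKM + 1), for MEF, D4, D4_DUX and iPSC. Pou5f1, Sox2, Klf4 and Myc are high at day 4, whereas Nanog, Esrrb, Tdgf1 and Dppa5a are near 0 in all 3 other groups and high in the 3 iPSC libraries.

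Many other factors of the pluripotency network were under 1 FPKM at day 4, and some were present. Of 29 pluripotency transcription factors 28 were tested, 26 were higher and 1 lower, with a median log2 fold change of 3.25. Since 16 of them reached 1 FPKM in iPSC alone and so had to differ, only the 12 at 1 FPKM in all 6 libraries, with a median of 1.69, are free of that choice: 8 were higher by at least 2-fold and none lower, against 14.6% and 9.56% of all such genes. Esrrb, an orphan nuclear receptor that can stand in for Nanog, was at 0.0184, 0 and 0 FPKM in D4 and 69.3, 71.7 and 78.1 in iPSC. Sall4, a zinc finger partner of Oct4, was at 0.00872 ± 0.0091 FPKM (SD, n = 3) in D4 and 65.2 ± 3.66 in iPSC. Nr0b1 (Dax1), a repressor in the Oct4 network, was listed at 0 in all D4 libraries and was at least 905-fold higher in iPSC at 64.5 to 67.7 FPKM, taking 3 fragments in the shallowest D4 library as the floor. Mybl2, a cell cycle regulator of dividing stem cells, was already at 2.39 FPKM in D4 and reached 187 (log2 fold change 5.79). The single lower factor was Stat3, which carries the LIF signal, at 26.8, 26.0 and 27.4 FPKM in D4 and 25.8, 25.6 and 24.2 in iPSC. That difference of -0.08 (log2, adjusted p = 0.0446) was lost under 9 of 18 alternative settings.

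Effector genes of pluripotency were higher with 1 exception. Of 38 tested, 36 were higher by at least 2-fold, with a median log2 fold change of 3.97, and 24 of the 38 were at 1 FPKM in iPSC alone. Of the 13 present in all 6 libraries, 11 were higher by at least 2-fold, beside 14.6% of all such genes. Dppa5a, an RNA-binding protein of pluripotent cells, was at 0, 0 and 0.0649 FPKM in D4 and 667, 666 and 710 in iPSC, the largest log2 fold change of the named genes at 9.38 ± 0.06. Tdgf1 (Cripto), the Nodal co-receptor, went from 0.0525 to 203 FPKM (7.60), and Utf1, a chromatin protein of embryonic stem cells, from 0.023 to 133 (7.03). Platr10, a long noncoding RNA, was listed at 0 in every D4 library and at 79.5 to 85.2 FPKM in iPSC, at least 1080-fold higher. Of the long intergenic RNAs tested, 179 of 351 reached 1 FPKM in iPSC alone. Among the 109 at 1 FPKM in all 6 libraries 21 (19.3%) were higher by at least 2-fold, beside 14.9% of such protein-coding genes. The 1 effector lower in iPSC was Cd9, a tetraspanin of the stem cell surface, with a mean of 117 FPKM in D4, 40.7 in iPSC and 47.0 in MEF.

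Formative genes, which mark the step toward the epiblast, were mixed. Only 9 of 20 were tested, and 5 of these reached 1 FPKM in iPSC alone and so had to be higher. None of the 4 at 1 FPKM in all 6 libraries differed by 2-fold in either direction, and their median was -0.02. Otx2, an early neural and epiblast homeobox factor, was listed at 0 in D4 and at 11.7 to 12.1 FPKM in iPSC (at least 377-fold higher). Zic2 and Zic5, zinc finger factors of the epiblast, were at 10.5 and 7.81 FPKM in iPSC against 0.571 and 0.172 in D4. No mesoderm marker of 10 passed the filter. Of 11 endoderm markers 8 were tested, and 4 of these, Sox17 among them, reached 1 FPKM in iPSC alone. Of the 4 at 1 FPKM in all 6 libraries 1 was higher and 1 lower by 2-fold, with a median of -0.6. Sox17 was at 1.32 to 1.61 FPKM in iPSC and 0 in D4, and Lama1, a basement membrane laminin, was at 2.90 FPKM in D4 and 32.3 in iPSC. Dab2 and Col4a1, of which Col4a1 is also on the matrix list, were lower. The endoderm list's median of 1.47 turned to -0.94 when 5 FPKM was required. Most 2-cell-stage genes did not pass the filter. The 4 tested of 30 were all higher, 2 by at least 2-fold: Nelfa was at 6.79 and 15.0 FPKM, and Calcoco2, which reached 1 FPKM in iPSC alone, was listed at 0 in D4 and at 5.70 in iPSC. Summed over the list, the level was 47.8 to 49.5 FPKM in D4 and 69.8 to 79.7 in iPSC. Duxf3 was at or below 0.0247 FPKM in every D4 and iPSC library.

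Germline genes were near 0 at day 4 and present in iPSC. In somatic cells many of them are shut by promoter methylation and by a Polycomb complex that holds Max and Mga, which bind the E-box CACGTG. All 31 tested members of 39 had at least 1 FPKM in iPSC and under 1 in every D4 library, so their direction follows from the filter. The other 8 did not pass the filter. Summed over the 39 members, the list took 0.157 to 0.168% of FPKM in iPSC and 0.00167 to 0.00176% in D4. Rpl10l, a testis ribosomal protein gene without introns, was listed at 0 in D4 and was at least 532-fold higher at 66.2 to 72.6 FPKM. Hormad1, a protein of the meiotic chromosome axis, was at 0, 0.0233 and 0 FPKM in D4 and 42.7, 48.1 and 47.7 in iPSC. Fkbp6, a cofactor of the piRNA pathway, was at 0.00844 FPKM in D4 and 35.8 in iPSC, and Cyct, the testis cytochrome c, was at 0 and 42.0. Rhox5, an X-linked homeobox gene, went from 0.119 to 35.8 FPKM. Mael, of the piRNA pathway, was at 14.4 FPKM in iPSC and listed at 0 in D4, and Slc25a31, a testis ADP/ATP carrier, at 5.48 and 0.147. These last 2 genes were chosen, after their values were seen, for their promoters.

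The promoter windows of RefSeq (build GRCm38.p6, 300 bases from 250 before to 50 after the start, the first window of a gene with several) were searched on both strands for 12 motifs. A window was matched for 26 of the 31 germline genes (83.9%). The E-box CACGTG was in 11 of 26 (42.3%), in 7.24% of all 27025 promoters of the table and in 10.4% of the windows of tested protein-coding genes, of which 78.5% were matched. The NRF1 motif, the palindrome that stands in capitals between the E-boxes of Hormad1 printed here, was in 4 of 26 (15.4%), in 0.977% of all and in 2.1% of those of tested genes. Other motifs searched did not stand out: the E2F-type sequence GCGCGAAA was in 0 of 26, beside 0.667% in tested genes. GGCGGGA, also of E2F type, was in 5 of 26 (19.2%), beside 21.4% in tested genes. CpG observed over expected had a median of 0.75 in the germline windows, 0.77 in those of tested genes and 0.39 in all, so the germline windows were close to those of tested genes. A match is a description of letters and not evidence of binding. Sets with windows for fewer than 80% of their genes were not read on their own. These were genes higher and lower by at least 2-fold (78.5% and 74.9%), pluripotency genes (68.2%) and matrix genes (63.8%). The tested protein-coding genes, at 78.5%, also fall under 80% and served only for comparison. Hormad1 (chr3:95559427-95559676, plus strand), Mael (chr1:166238745-166238994, minus strand) and Slc25a31 (chr3:40708621-40708870, plus strand) are shown for their E-boxes, as the 250 bases before the start, with E-box or NRF1 letters in capitals.
Hormad1: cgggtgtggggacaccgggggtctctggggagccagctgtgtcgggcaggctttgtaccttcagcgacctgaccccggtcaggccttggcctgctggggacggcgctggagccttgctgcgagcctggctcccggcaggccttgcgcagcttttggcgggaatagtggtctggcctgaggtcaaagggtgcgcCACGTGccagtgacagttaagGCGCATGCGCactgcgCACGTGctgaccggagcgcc
Mael: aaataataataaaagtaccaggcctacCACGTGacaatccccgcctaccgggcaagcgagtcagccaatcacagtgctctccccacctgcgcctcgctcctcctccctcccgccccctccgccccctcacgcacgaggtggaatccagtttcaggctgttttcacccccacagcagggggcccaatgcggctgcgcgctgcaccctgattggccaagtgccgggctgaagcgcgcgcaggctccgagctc
Slc25a31: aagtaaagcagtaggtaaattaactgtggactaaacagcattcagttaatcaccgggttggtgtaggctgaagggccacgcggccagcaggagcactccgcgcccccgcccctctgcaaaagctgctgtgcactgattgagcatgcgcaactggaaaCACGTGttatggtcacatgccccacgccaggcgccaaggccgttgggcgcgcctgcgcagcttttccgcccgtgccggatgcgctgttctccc
Hormad1 holds E-boxes at -57 to -52 and -20 to -15 with the NRF1 motif between them at -36 to -27, Mael an E-box at -223 to -218 and Slc25a31 at -93 to -88, counted from the start.

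Several groups of chromatin regulators held more higher members than the 50.1% of all genes tested, while others were near it. Of 20 DNA methylation enzymes and readers, 16 were higher, 11 of them by at least 2-fold, and 2 lower, with a median log2 fold change of 1.64. Of the 17 at 1 FPKM in all 6 libraries 8 were higher by at least 2-fold, beside 14.6% of all such genes, and their median was 0.92. The other 3, Dnmt3l, Dnmt3b and Tet1, reached 1 FPKM in iPSC alone and so had to be higher. Dnmt3l, the germline cofactor of de novo methylation, was at 0.052, 0.128 and 0.0471 FPKM in D4 and 79.7, 84.1 and 82.2 in iPSC. Dnmt3b, a de novo methyltransferase, went from 0.296 to 34.7 FPKM and Tet1, which oxidises methylcytosine, from 0.377 to 37.3. Uhrf1 and Hells, which serve maintenance methylation, went from 10.9 to 97.4 and from 3.03 to 53.7 FPKM. Both members that were lower, Mbd2 and Tet3, differed by less (log2 fold changes of -0.55 and -0.53).

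Polycomb genes, which keep developmental genes silent, divided by subunit. Of 34 tested, 21 (61.8%) were higher and 11 (32.4%) lower, near the shares over all genes. By at least 2-fold 16 (47.1%) were higher and none lower, beside 20.8% and 10.2% of all genes. Phc1 went from 3.09 to 112 FPKM (log2 fold change 4.78), Cbx7, the chromodomain subunit of stem cells, from 0.728 to 28.1 (4.07) and Jarid2 from 1.89 to 37.3 (3.73). Ring1 and Cbx8 were lower, at log2 fold changes of -0.95 and -0.92. Among 19 genes of H3K9 methylation 16 were higher, with Trim28, the scaffold of heterochromatin and retroelement silencing, at 46.7 FPKM in D4 and 246 in iPSC (2.37). All 20 histone chaperones tested were higher, 11 by at least 2-fold, with Nasp at 4.40 and 79.1 FPKM (3.89). Of 25 subunits of the BAF remodelling complex 17 (68.0%) were higher and 6 (24%) lower. Smarcd1 was at 4.00 FPKM in D4 and 26.7 in iPSC (2.47), and Smarca2, an alternative motor subunit, at 9.51 and 2.42 (-1.62). The other motor, Smarca4 (Brg1), named for the subject of the series, had 36.8 and 35.8 FPKM and did not pass the test (-0.04, adjusted p = 0.363). Of 32 acyltransferases, deacylases and lactylation genes 20 (62.5%) were higher and 10 (31.2%) lower, near the shares over all genes, with the deacetylase Sirt1 at 1.10 and 18.4 FPKM and Aars at 25.5 and 76.4. Ep300, an acetyltransferase that can also place lactyl groups, was at 7.15 and 16.3 FPKM (1.08), and the deacetylase Hdac7 was lower (-1.44). Telomere genes were higher in 14 of 15, with Rif1 at 3.59 and 54.8 FPKM.

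DNA replication and mitosis genes were higher with few exceptions. All 40 replication genes reached 1 FPKM in all 6 libraries, and 33 of them were higher by at least 2-fold and none lower by that much, with a median log2 fold change of 1.79. Of all such genes 14.6% were higher and 9.56% lower by at least 2-fold. Mcm5, a subunit of the replicative helicase, was at 11.7, 11 and 10.9 FPKM in D4 and 85.4, 85.2 and 94.1 in iPSC (log2 fold change 2.87). Cdt1, the licensing factor, was at 4.49 and 40.6 FPKM (2.92). Rrm1, a ribonucleotide reductase subunit, was the 1 lower member (-0.69). Mitosis genes were higher by at least 2-fold in 29 of 35, with Ccnb1 at 12.7 and 84.2 FPKM and Kif11 at 4.03 and 30.4, and Cdc25b was lower (-0.98). The G1 regulators went both ways, with 10 of 24 higher and 12 lower. Ccnd1, cyclin D1, was at 275, 268 and 275 FPKM in D4 and 43.1, 39.7 and 40.2 in iPSC (-2.71), and 16.7 in MEF. Cdkn2a, the Ink4a/Arf locus that limits reprogramming, was at 73.2, 77.7 and 68.4 FPKM in D4 and 13.0, 11.5 and 9.75 in iPSC (-2.58). Cdkn2b was lower as well (-1.75), and Cdk2 and Cdc25a were higher (1.63 and 1.67).

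Windows were matched for 32 of the 40 replication genes (80.0%). The E2F-type sequence GCGCGAAA was in 5 of 32 (15.6%), those of Mcm5, Mcm6, Mcm7, Orc1 and Rfc3, in 0.318% of all promoters and in 0.667% of the windows of tested protein-coding genes. The median CpG observed over expected of the replication windows was 0.89, beside 0.77 in tested genes. Mitosis genes had windows for 28 of 35 (80.0%), and GCGCGAAA was in 1 of these 28 (3.57%). GGCGGGA was in 10 of 32 replication windows (31.2%) and 8 of 28 mitosis windows (28.6%), beside 21.4% in tested genes. Mcm6 (chr1:128359706-128359955, minus strand) and Orc1 (chr4:108579204-108579453, plus strand) are shown for GCGCGAAA, again in capitals in the 250 bases before the start.
Mcm6: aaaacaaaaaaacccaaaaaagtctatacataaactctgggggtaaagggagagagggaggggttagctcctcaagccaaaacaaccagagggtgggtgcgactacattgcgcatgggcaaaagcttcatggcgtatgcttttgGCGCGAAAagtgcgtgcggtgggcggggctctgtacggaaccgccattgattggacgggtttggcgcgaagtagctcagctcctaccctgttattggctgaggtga
Orc1: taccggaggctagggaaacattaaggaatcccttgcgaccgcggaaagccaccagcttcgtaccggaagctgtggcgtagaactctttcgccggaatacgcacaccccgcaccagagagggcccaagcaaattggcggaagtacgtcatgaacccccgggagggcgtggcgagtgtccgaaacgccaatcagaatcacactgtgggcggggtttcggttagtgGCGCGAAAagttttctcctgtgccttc
The match lies at -106 to -99 in Mcm6 and at -27 to -20 in Orc1.

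Metabolic genes changed selectively. All 23 serine, threonine and one-carbon genes, which feed nucleotide and methyl synthesis, were higher, 16 by at least 2-fold, with a median log2 fold change of 1.5. Of the 20 at 1 FPKM in all 6 libraries 14 were higher by that much, beside 14.6% of all such genes. Tdh, threonine dehydrogenase, on which mouse pluripotent cells depend, was at 0.14, 0.185 and 0.177 FPKM in D4 and 90.2, 94.8 and 101 in iPSC. Gldc, of glycine cleavage, was at 0.0795 and 24.9 FPKM, and Mthfd2, of mitochondrial folate metabolism, at 15.2 and 76.3. Glycolysis and lactate genes were mostly lower, 19 of 29 (65.5%) against 8 (27.6%) higher, beside 34.0% and 50.1% of all genes tested. Ldha, which makes lactate, was at 301, 298 and 289 FPKM in D4 and 106, 104 and 105 in iPSC (-1.48), and the lactate exporter Slc16a3 at 31.4 and 2.90 (-3.06). The exceptions included the glucose transporter Slc2a3, at 3.99 and 84.2 FPKM (4.09), and Pfkp, at 6.24 and 22.9. Oxidative phosphorylation genes differed by small amounts. None of 52 was higher by 2-fold and 1, Cox4i2, was lower, and the list's median was 0.06, turning to -0.06 with median-ratio scaling and -0.02 with quantile normalization. ATP synthase subunits Atp5a1 and Atp5b led those that were higher (0.82 and 0.79). Cholesterol genes were lower in 23 of 28, with Hmgcs1 at 31.1 and 11.5 FPKM. Among NRF2 and glutathione genes 19 of 28 (67.9%) were higher and 7 (25.0%) lower, beside 50.1% and 34.0% of all genes. By at least 2-fold 17.9% were higher, under the 20.8% of all genes. Hmox1 was at 52.0 and 137 FPKM, beside 141 in MEF. Of 26 p53 targets 17 (65.4%) were higher and 8 (30.8%) lower, and 7 (26.9%) were higher by at least 2-fold, near the 50.1%, 34.0% and 20.8% of all genes. Trp53 itself was at 27.4 and 85.6 FPKM (1.61), while Fas and Perp were lower.

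**Figure D3:**
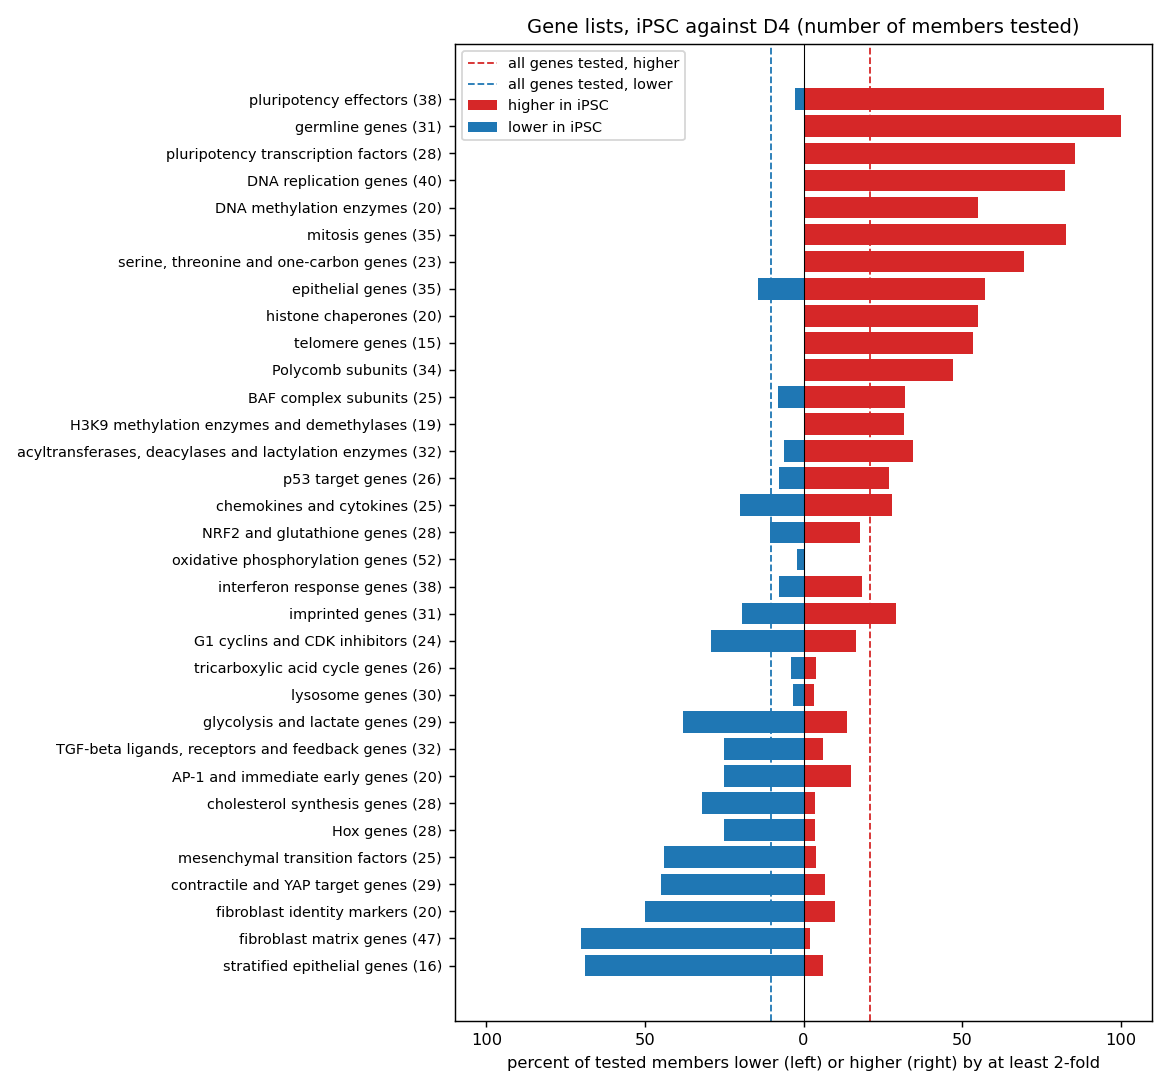
Bars give, for each list with at least 15 members tested, the percent of tested members higher (red, right) or lower (blue, left) in iPSC by at least 2-fold, and dashed lines give 20.8% and 10.2% for all genes tested; members that passed the filter through 1 group alone, whose direction it fixed, are included. Lists are ordered by median log2 fold change, from pluripotency effectors (3.97) at the top to stratified epithelial genes (-1.89) at the bottom.

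The fibroblast program was lower but not gone. Of 47 matrix genes 42 (89.4%) were lower and 33 (70.2%) by at least 2-fold, beside 34.0% and 10.2% of all genes tested. The median log2 fold change was -1.63. Col1a2, a chain of type I collagen, was at 809, 825 and 829 FPKM in D4 and 117, 95.1 and 74.5 in iPSC (-3.12), with 1120 in MEF. Timp3, an inhibitor of matrix proteases, was at 539, 517 and 535 FPKM in D4 and 10.3, 11.1 and 10.4 in iPSC, and Eln, elastin, at 10.2 and 0.194. Tnc and Mmp3 went the other way: Tnc, tenascin C, was at 327, 314 and 339 FPKM in D4 and 752, 700 and 556 in iPSC, and Mmp3, stromelysin, at 324, 323 and 315 and at 558, 531 and 358. Fn1 (391 and 365 FPKM), Postn (45.2 and 40.2) and Vcan (27.3 and 26.8) did not pass the test. The iPSC libraries differed among themselves in these genes, replicate 1 being highest and replicate 3 lowest for Col1a2, Tnc, Mmp3, Acta2 and Ccn2.

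Markers of fibroblast identity were lower in 15 of 20 (75.0%), beside 34.0% of all genes tested. S100a4 was at 621, 630 and 593 FPKM in D4 and 28.6, 29.6 and 26.3 in iPSC (-4.40). Cd34 was at 79.1 and 4.84 and the intermediate filament Vim at 552 and 163. Dpp4 and Pdpn were higher (2.82 and 1.53). Among 25 mesenchymal transcription factors tested 22 were lower, led by Prrx2 (-2.75) and Twist1 (-1.71), and Twist2 was higher (1.40). Of 29 contractile and YAP target genes 23 were lower, with smooth muscle actin Acta2 at 356, 360 and 333 FPKM in D4 and 81.8, 68.4 and 54.4 in iPSC. Ajuba was higher (2.01). TGF-beta pathway genes were lower in 18 of 32 (56.2%) and higher in 7 (21.9%), beside 34.0% and 50.1% of all genes. Among the lower were the ligands Tgfb2 (-2.52) and Tgfb3 (-1.79) and the receptor Tgfbr2 (-2.20), and the BMP target Id1 was at 87.2 FPKM in D4 and 7.09 in iPSC (-3.45). The receptor Acvr2b and the binding protein Ltbp4 were higher (1.58 and 1.55). Of 28 Hox genes tested, which keep the positional identity of fibroblasts, 24 were lower, 7 of the 28 reaching 1 FPKM in D4 alone. Hoxc8 was at 13.9 and 3.78 FPKM (-1.64). AP-1 and immediate early genes were lower in 12 of 20, led by Fos at 24.6 and 3.50 FPKM (-2.50), whereas Fosl1 was higher (1.70).

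**Figure D4:**
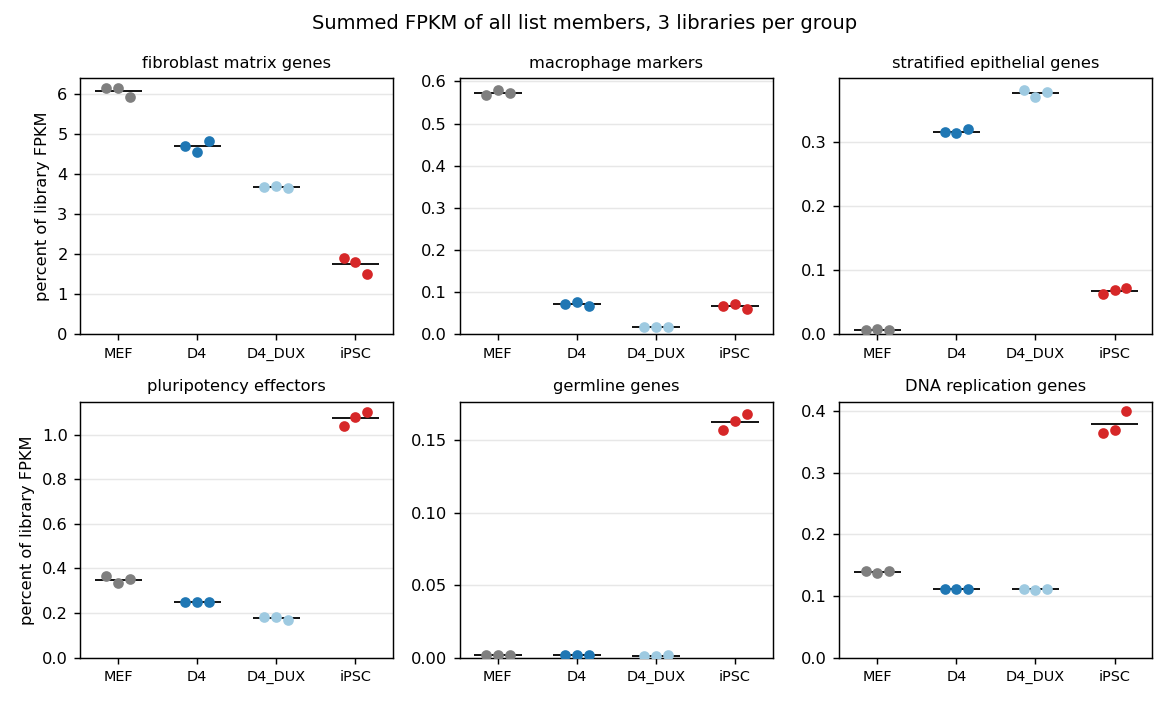
Each dot is 1 library and each bar the mean of 3, with the summed FPKM of all members of a list on the y axis as a percent of the library's FPKM. Matrix genes are at 1.51 to 1.91% in iPSC and 4.56 to 4.82% in D4, germline genes are near 0 outside iPSC, and stratified epithelial genes are highest at day 4.

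Some genes were far higher at day 4 than in either fibroblasts or iPSC. Msln, mesothelin, was at 342, 350 and 327 FPKM in D4, 469 in D4_DUX, 1.45 in MEF and 0.57, 0.798 and 0.578 in iPSC (log2 fold change -7.69 ± 0.10). Aldh3a1, an aldehyde dehydrogenase of cornea and stratified epithelia, was at 192, 198 and 193 FPKM in D4, 0.036 in MEF and 0.364, 0.171 and 0.363 in iPSC. Prelp, a leucine-rich proteoglycan, was at 574 FPKM in D4, 6.85 in MEF and 3.08 in iPSC. Of the 10 named genes at the lower end, Nccrp1, Clec3b, Nkain4 and Mal were also under 1 FPKM in MEF, while Ccdc80, Timp3 and Igfbp6 were at 29.8 to 95.1 FPKM there. Summed over their list, stratified epithelial genes were also highest at day 4, though higher in iPSC than in MEF. The sum was 972 to 991 FPKM in D4, of which Anxa8 alone held a mean of 468 and Aldh3a1 192 to 198. Of the 33 members 17 did not pass the filter, the basal genes Krt5 and Trp63 among them. Of 16 tested, 8 reached 1 FPKM in D4 alone and so had to be lower in iPSC. Of the 6 at 1 FPKM in all 6 libraries 4 were lower by at least 2-fold and none higher, beside 9.56% and 14.6% of all such genes. The 33 listed members took 0.313 to 0.319% of FPKM in D4, 0.062 to 0.0713% in iPSC and 0.00656 to 0.00733% in MEF. The basal keratin Krt14 was at 19.6, 18.9 and 22.4 FPKM in D4 and 0, 0.0825 and 0.195 in iPSC, and Krt16 at 14.7 and 0.0177. The integrin Itgb4, of hemidesmosomes, was at 72.6 and 1.94 FPKM and Anxa8 at 468 and 16.2. In the Ly6 family 6 of 10 tested (60.0%) were lower, beside 34.0% of all genes tested. Only 4 of the 10 were at 1 FPKM in all 6 libraries, with 1 of these lower by 2-fold. Ly6a (Sca-1) was at 549, 593 and 521 FPKM in D4, 46.2 in MEF and 42.4, 31.8 and 31.2 in iPSC, and Ly6c1 at 55.0 and 1.32. Ly6 members share sequence, so single members are uncertain. Ly6g6e and Ly6g6d were higher (2.70 and 1.86).

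**Figure D5:**
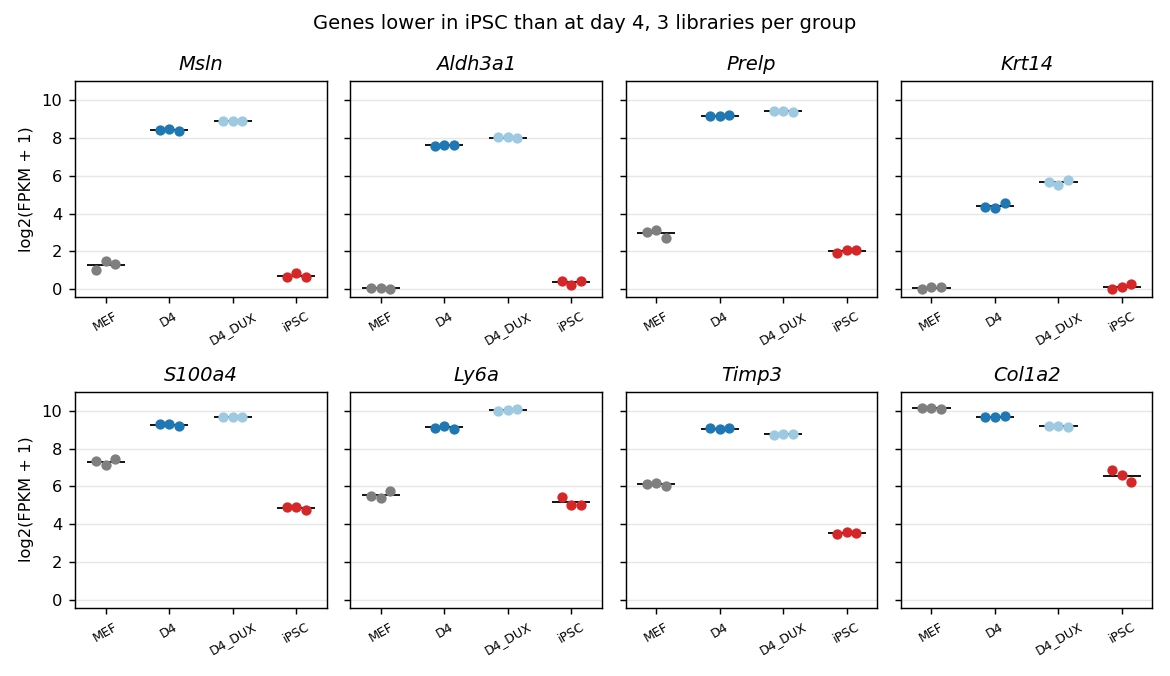
Each dot is 1 library and each bar the mean of 3, on the y axis as log2(FPKM + 1), for 8 genes lower in iPSC than in D4. Msln, Aldh3a1, Prelp and Krt14 are high in D4 and D4_DUX and low in MEF and iPSC, whereas Col1a2 is high in MEF as well.

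Simple epithelial genes included some of the larger increases. Of 35 tested, 20 (57.1%) were higher by at least 2-fold and 5 (14.3%) lower, beside 20.8% and 10.2% of all genes. The median was 1.46. Of the 35, 16 reached 1 FPKM in iPSC alone and 4 in D4 alone, and so had to differ. Among the 12 present in all 6 libraries 3 were higher and 2 lower by 2-fold, beside 14.6% and 9.56% of all such genes. Cdh1, E-cadherin, was at 2.78, 2.54 and 2.61 FPKM in D4, 0.137 in MEF and 65.2, 68.3 and 74.7 in iPSC (4.27). Epcam, the epithelial adhesion molecule, was at 0.131, 0.0826 and 0.128 FPKM in D4 and 53.8, 50 and 55.2 in iPSC (5.60). Claudins 4 and 6 (Cldn4, Cldn6) were at 24.7 and 15.2 FPKM in iPSC and 0.171 and 0.0819 in D4, and Grhl2, an epithelial transcription factor, at 11.5 and 0.00467. Among the lower members were Pkp1, at 7.16 and 0.0285 FPKM, and Dsp, at 4.41 and 0.62, which both serve desmosomes. With means under 1 FPKM in iPSC, neither is among the 12 present in all 6 libraries. Dsg2, a desmosomal cadherin chosen after its value was seen, was higher (2.40).

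Of 25 chemokines and cytokines 12 (48.0%) were higher and 8 (32.0%) lower, near the 50.1% and 34.0% of all genes. Ccl11, eotaxin, was at 1.66, 1.71 and 1.24 FPKM in D4, 19.8 in MEF and 182, 168 and 144 in iPSC (6.03). Lif was at 9.96 and 63.7 FPKM, Cxcl1 at 50.1 and 241 and Il11 at 1.34 and 16.6. These are also made by stromal cells, and beside them the matrix list took 1.51 to 1.91% of iPSC FPKM. The part of such cells in these values was not tested. Ccl20 and Cxcl14 were lower (-3.27 and -2.72). Interferon response genes had a median of 0 over 38 tested, with 15 (39.5%) higher and 10 (26.3%) lower. Both shares were under those over all genes. The libraries of a group spread widely: Ifit3 was at 11.4, 27.1 and 9.14 FPKM in D4 and 55.5, 21 and 42.8 in iPSC, so its groups overlapped. H2-D1, a class I antigen, was lower (210 and 90.1 FPKM). Of 18 macrophage markers 13 were tested and 9 (69.2%) were lower, beside 34.0% of all genes. Of the 13, 3 reached 1 FPKM in D4 alone and so had to be lower. Among the 10 at 1 FPKM in all 6 libraries 2 were higher by at least 2-fold and none lower. Over all such genes 14.6% were higher and 9.56% lower, and the median of the 10 was -0.35. C1qb, 1 of the 3 in D4 alone, was lower by most (5.71 and 0.815 FPKM). Laptm5 (4.47 and 36.1) and Cd68 (9.26 and 24.2) were higher. Imprinted genes moved both ways, 14 of 31 (45.2%) each, beside 50.1% higher and 34.0% lower over all genes. Peg10 was at 1.49 and 42.6 FPKM and H19 at 660 and 154.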

How the data were processed

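Per the labels' protocols, polyadenylated RNA was sequenced as stranded paired-end libraries. The authors deposited 1 table of FPKM values with 12 columns, 3 per group. The genome build is mm10 per the submitters' processing notes. The aligner and counter, and whether strand was used, were not given in the sources used here. Genes on opposite strands may share fragments. Of 40384 gene IDs 40225 (99.6%) matched GENCODE M21, which gave symbols, positions and biotypes. Depth came from FPKM steps times gene length, and floors are 3 fragments in the shallowest library of a group. At the recovered depths 54.4 to 57.4% of low values were whole fragments, so depths, floors and the folds taken from them are estimates. No columns were identical (0 of 66 pairs).

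Genes reaching 1 FPKM in 3 or more of the 6 D4 and iPSC libraries were tested on log2(FPKM + 1) with limma 3.58.1 in R 4.3.3. One mean per group was fitted to all 12 libraries with a variance trend, and p-values were adjusted by Benjamini-Hochberg over 16293 genes. Fold changes on this scale understate those of low genes. Unless said otherwise, pairs of FPKM values are means of D4 and then iPSC, and a signed number in parentheses is a log2 fold change. The fit was tested on simulated data.

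The 43 lists and the members were chosen with earlier results of these data known. Genes named were Pou5f1, Sox2, Klf4, Myc, Nanog and Duxf3, the 10 most raised and 10 most lowered by fold change (called, no overlap, mean of at least 5 FPKM in the higher group, no predicted-gene name), and from each list the 5 largest called changes in the main direction and the 2 largest in the other. Some genes that this rule names are not reported here. Others were chosen after their values were seen: label checks, promoter examples, Smarca4, Ep300, Fn1, Postn and Vcan. Alternatives were pseudocounts of 0.1 and 0.5, other filters, scalings and variance models, recovered fragments, a replicate block and leaving out each library. Promoters came from RefSeq, GRCm38.p6.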

Additional observations from a re-analysis of the deposited data

How the results depend on the processing

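Of the counts of genes, 68 of 72 alternatives stayed within 1.5 times the reported value. Requiring 5 FPKM, which tests fewer genes, gave 5079 higher, 3681 lower and 2177 higher by at least 2-fold, and testing every gene above 0 gave 13277 higher. Leaving out 1 library at a time gave 7978 to 8065 higher and 5352 to 5520 lower, and 3357 to 3404 higher and 1603 to 1709 lower by at least 2-fold. Of the list medians, 149 of 756 alternatives moved: among them the median of pluripotency factors ran from 3.07 to 6.66, of effectors from 3.79 to 5.93, of germline genes from 3.32 to 6.86, of epithelial genes from 1.28 to 2.89 and of stratified epithelial genes from -3.89 to -1.79, so the order of these lists depends on the setting. The median of endoderm markers turned to -0.94 when 5 FPKM was required, and Actn3, a muscle gene at low level, turned from 0.22 to -0.04 with quantile normalization (the cause was not tested). Of the named genes, 19 of 4914 alternatives lost the call, of Stat3, Eif1a, Foxc2, Ifit3, Hoxb9 and Actn3. Libraries with the same replicate number did not deviate together (r of 0.028, -0.04 and 0.002). No pairing by number was visible, but 3 libraries per group cannot exclude it. With the replicate block 8119 were higher and 5480 lower, and 3392 and 1655 by at least 2-fold. Levels under the floor of 3 fragments, such as many D4 values of pluripotency and germline genes, cannot be told from 0 at this depth.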
